A study of Mus musculus with 29 samples.

Results

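Monocyte-derived cells of the brain were compared with monocytes of the blood 2 days after an experimental stroke in mice. The members were the cells that the authors' annotation places under the parent code MdC in 4 brain libraries and under Mo in 4 blood libraries, all from male C57BL/6J mice aged 8 to 10 weeks. These were 9025 of the 106977 cells in the series' 29 libraries, made up of 7225 brain cells (1468 to 2180 per library) and 1800 blood cells (213 to 746 per library). These 8 libraries came from mice whose middle cerebral artery had been occluded transiently, a model in which a brain artery is blocked for a limited time and then reopened. Beside them stand libraries from mice of the same strain, sex and age, 4 of brain and 4 of blood from sham-operated mice at day 2, and 4 of brain and 3 of blood from mice 14 days after stroke. No allele or transgene is named for any group. Expression was measured by Drop-seq, in which single cells are caught in droplets with barcoded beads. A brain library held cells from 4 to 5 hemispheres that were pooled, digested with papain, cleared of myelin on Percoll and sorted. A blood library held leukocytes pooled from 2 mice after red cell lysis and removal of Ter-119 positive cells. Actinomycin D and Brilliant Blue G were present in both preparations and AP-5 in that of the brain, so tissue and preparation cannot be told apart in any difference given here.

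Monocytes are made in the bone marrow and circulate in 2 main forms. Classical monocytes carry high Ly6C and CCR2 and leave the blood for injured tissue, while nonclassical monocytes carry low Ly6C and patrol the vessel wall. After a stroke, classical monocytes enter the infarct, where they become macrophages that clear dead cells, myelin and blood products, and they are a source of cytokines and of repair factors.

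Counts of these cells were summed per library, which gave 1482550 to 3146166 counts for brain and 108972 to 558475 for blood. The medians were 680 to 1301 counts per brain cell and 433 to 1306 per blood cell. Levels are given as CPM, counts scaled so that every sum has the same standard total, with no correction for gene length, so they are not compared between genes. In such sums, fewer cells of a type and less RNA per cell cannot be told apart. The deposited counts are fractional, and raising each value in a cell to the next whole number would add 3.41% to 14.2% to a brain sum and 3.43% to 8.41% to a blood sum. The median mitochondrial share of brain cells was 0.263% and 0.231% in libraries 1 and 2 and 2.69% and 2.32% in libraries 3 and 4, against 2.22% to 4.23% in blood. Pairs of libraries shared 0 to 4 cell barcodes. The labels number the replicates but, beyond the pooling, do not say that they came from separate animals, so p-values measure the spread between these libraries, part of which may be technical.

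The monocyte and macrophage markers were the highest of the marker lists in both groups, all 12 of them measured, and summed to 32586 to 45571 CPM in brain and 47290 to 64938 CPM in blood. Among markers of other cells, the 11 dendritic cell markers listed in both tables summed to 1856 to 2788 CPM in brain and 2600 to 3665 CPM in blood, where Zbtb46, Clec9a, Itgae and Siglech were at 0. The 8 border-associated macrophage markers summed to 830 to 1449 CPM in brain and 1329 to 2465 CPM in blood, where Cd163, Lyve1 and Cbr2 were at 0. Nearly all of the blood sum was F13a1, which is also a gene of classical monocytes, and 6 of the 8 were under 5 CPM in blood. Of the 6 tested, 4 were called higher in brain and 1 lower. The 7 microglial markers listed in both tables summed to 230 to 841 CPM in brain and 358 to 516 CPM in blood, and the 12 neutrophil markers to 250 to 485 CPM in brain and 489 to 1171 CPM in blood. The 12 T cell markers summed to 93.2 to 133 CPM in brain and 11.3 to 26.1 CPM in blood, and the 12 B cell markers to 15.6 to 49.9 CPM and 96.1 to 167 CPM. Of the T cell markers, Il7r alone was at 91.7 to 121 CPM in brain, where 11 of the 12 were under 5 CPM. The 7 platelet markers summed to 131 to 593 CPM in brain and at most 2.13 CPM in blood, nearly all of it Pf4. Microglia made up 17.5%, 20.8%, 1.68% and 29.5% of brain libraries 1 to 4, and neutrophils 69.6%, 55.6%, 11.7% and 54.4% of blood libraries 1 to 4. The part of these cells' free RNA in the results was not tested, except where a value is given beside a gene.

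Brain cells and blood cells of the monocyte lineage differed in the level of 1863 of 7540 genes tested (24.7%), of which 1007 were higher in brain (13.4%) and 856 lower (11.4%). The count of lower genes was 493 without blood library 3, 535 with no filter on low counts, 529 in cells of at least 800 counts and 165 with the blood subtype Mo1 alone as the blood side, where 755, 1075, 757 and 573 genes were higher. A gene is called higher or lower at an adjusted p under 0.05 in edgeR's quasi-likelihood test, adjusted over all genes tested. Log2 fold changes are brain over blood on TMM-scaled sums and are given ± standard error, while CPM uses plain library totals. The 4 brain libraries and the 4 blood libraries did not overlap in 2241 genes (29.7%). Over the 7540 genes the median change was 0.04, which moved to −0.20 with library totals in place of TMM scaling, under which 725 genes were higher and 1249 lower, so a change near 0 depends on the scaling. With brain libraries 3 and 4 alone, whose mitochondrial share was near that of blood, 1298 genes were higher and 1209 lower, and with libraries 1 and 2 alone 797 and 657.

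Arginase 1 (Arg1), which breaks down arginine and marks macrophages of wounds and repair, headed the genes higher in brain. Arg1 stood at 917, 2125, 1318 and 1655 CPM in brain libraries 1 to 4 and at 0 in every blood library. From 12828 counts against a floor of 3 counts over the blood group, brain was at least 739-fold higher. Spp1, which encodes the secreted adhesion protein osteopontin, was at 4215, 13438, 5898 and 6090.4 CPM in brain and at 1.77, 0, 0 and 1.64 CPM in blood. The lowest brain library was far above the highest blood library, and with 2 counts in blood the ratio was 5279.6 (95% counting interval 1461 to 43596). Intervals and floors of this kind cover counting error only.

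The other named genes had varied roles, and all named genes were chosen to have no overlap of libraries. Ptgs2, the inducible cyclooxygenase that starts prostaglandin synthesis, was at 656, 500.4, 421 and 361 CPM in brain and 0 in all blood libraries, at least 261-fold higher. Cxcl2, a chemokine that draws neutrophils, was at 3228, 3359, 3305 and 4375 CPM in brain and at 4.05, 15.5, 5.19 and 1.65 CPM in blood, a log2 fold change of 9.82 ± 0.52 (edgeR adjusted p = 9.33e-07). Neither gene's groups overlapped. Dab2, an endocytic adaptor of macrophages, was at 282 to 409.7 CPM in brain and 0 in blood (at least 185-fold), Cxcl16, a membrane-bound chemokine and scavenger receptor, at 158 to 296 CPM and 0 (at least 113-fold), and Rai14, an actin-associated protein, at 73.5 to 92.7 CPM and 0 (at least 42.8-fold). Cxcl10, an interferon-induced chemokine, was at 448, 183, 421 and 414 CPM in brain and 0 in blood (at least 207-fold). Emp1, a membrane protein of the PMP22 family, was at 344 to 621 CPM in brain and had 1 count in blood, a ratio of 741 (95% counting interval 133 to 29255). Reads of the pseudogene Cd63-ps, at 90.6 to 852 CPM in brain and 0 in blood, cannot be told from those of its parent gene Cd63.

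A level of 0 in these files is not always an absence of reads. AA467197, which gives rise to a microRNA host transcript, was at 451 to 864 CPM in brain and 0 in blood. Mxd1, a transcriptional repressor and partner of MAX, was at 192 to 262 CPM in brain and 0 in blood. With each cell's value raised to the next whole number, blood monocytes held 9 counts of AA467197 and 78 of Mxd1, both abundant in the neutrophils that shared the blood libraries (1250 and 10552 deposited counts). The log2 fold change of Mxd1 was then 2.43, against 11.32 as deposited, and that of AA467197 6.93, against 12.80, so no lower bound is drawn for either. Arg1, Ptgs2, Cxcl10, Dab2, Cxcl16 and Rai14 kept 0 counts in blood when rounded up.

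**Figure D1:**
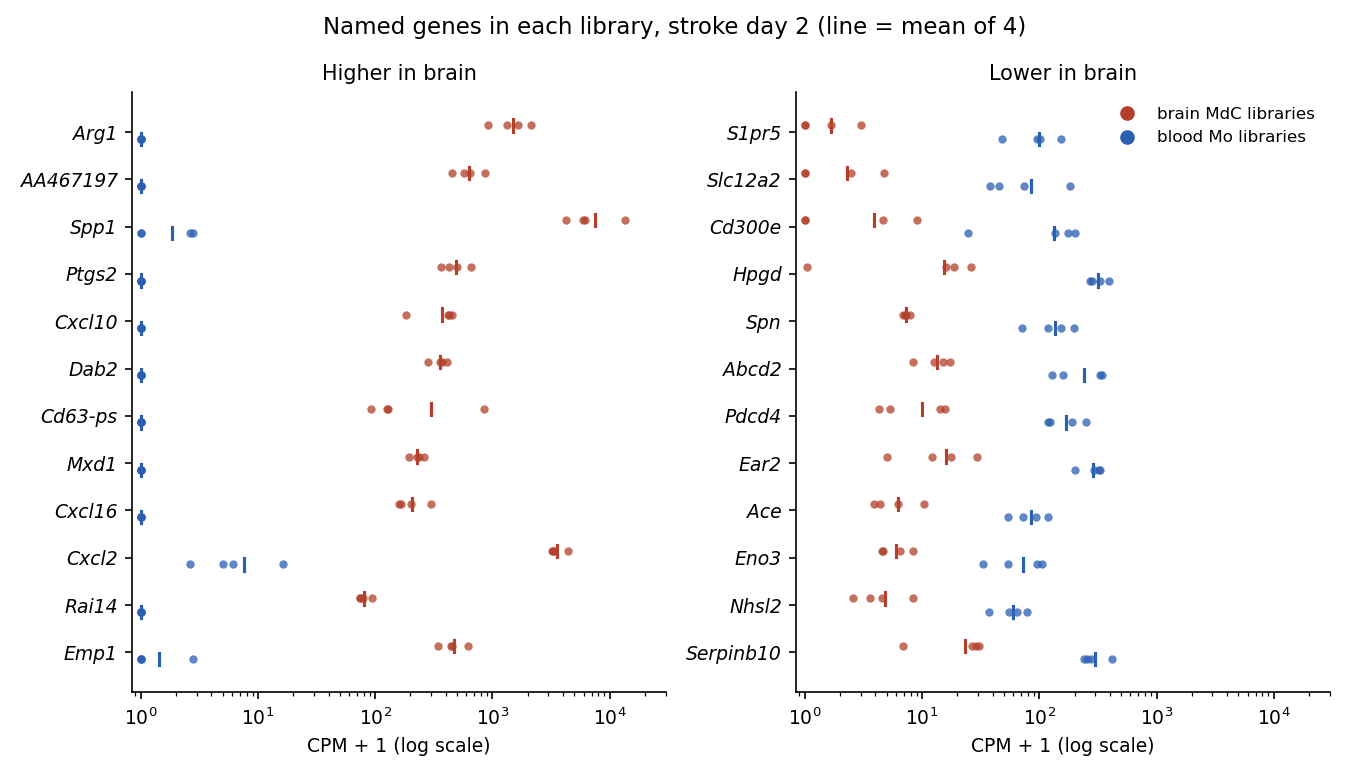
Level of the 24 named genes in each library, as CPM + 1 on a log axis, with brain libraries in red, blood libraries in blue and the mean of 4 as a vertical line. The 12 genes on the left sit near 1 in most blood libraries. For all 24 genes no brain library overlaps a blood library, which the choice of named genes required.

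Several of the genes with the largest losses in brain were those of nonclassical monocytes, with S1pr5 first. S1pr5, a receptor for sphingosine 1-phosphate that guides exit from the marrow, was at 0, 0, 0.685 and 2.04 CPM in brain libraries 1 to 4 and at 94.0, 154, 47.2 and 99.9 CPM in blood, a log2 fold change of −6.69 ± 0.67 (edgeR adjusted p = 2.26e-05). Cd300e, an activating receptor, was at 0, 0, 3.62 and 8.07 CPM in brain and at 175, 201, 23.7 and 135 CPM in blood (−5.13 ± 0.90). The blood library with the lowest Cd300e and S1pr5, the third, also had the lowest share of subtype Mo3 described further on. Spn, the sialoglycoprotein CD43, was at 5.86 to 6.91 CPM in brain and 70.9 to 198 CPM in blood (−4.07 ± 0.34). Ear2, an eosinophil-associated ribonuclease, was at 4.08 to 28.5 CPM in brain and 200.5 to 332 CPM in blood (−3.93 ± 0.47).

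Of the 13 nonclassical genes tested, 8 were called lower, 2 higher and 3 were not called, with a median log2 fold change of −2.93. The lower group also held Ace, the angiotensin-converting enzyme (−3.64 ± 0.40), the muscle-type enolase Eno3 (−3.60 ± 0.46), Treml4 (−3.01 ± 0.44) and the adhesion receptor Adgre4 (−2.93 ± 0.35). Nr4a1, a nuclear receptor that nonclassical monocytes need and that is also an early response gene, was higher instead, at 363 to 678 CPM in brain and 98.8 to 282 CPM in blood (1.82 ± 0.34). Apoc2, an apolipoprotein, was also called higher (2.24 ± 0.62), a call lost without blood library 2, 3 or 4 and with sham blood in place of stroke blood (edgeR adjusted p from 0.0517 to 0.120 where lost). Cx3cr1, the fractalkine receptor, was at 147, 107, 5.6 and 0 CPM in brain and at 179.8, 223, 336 and 229 CPM in blood. Although no brain library reached the blood range, the brain libraries were far apart and Cx3cr1 was not called (−1.73 ± 0.91, edgeR adjusted p = 0.191). These brain values depend on the fractional counts: the 4 libraries held 584 counts of Cx3cr1 as deposited and 1213 when rounded up, and with those it was called lower, by 0.74 on the log2 scale. Microglia held Cx3cr1 at 24.5 times the brain cells' level.

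These calls turned in part on 1 blood subtype. Mo3 made up 23.1% ± 13.1 of blood monocytes (SD, n = 4) and held Ear2 at 1316 CPM, S1pr5 at 456 CPM, Spn at 575 CPM, Cd300e at 607 CPM and Treml4 at 521 CPM. Without Mo3, Spn (log2 fold change −1.90) and Ear2 (−1.97) were still called lower, while Treml4 was not (−1.07, edgeR adjusted p = 0.0787). Cd300e and S1pr5 had too few counts to be tested without Mo3, and Cd300e was at 0 in Mo1, Mo2 and Mo4. With Mo2 alone as the blood side Ear2, Adgre4 and Treml4 were not called (edgeR adjusted p = 0.0725, 0.471 and 0.998), and with Mo1 alone Ace, Spn and Treml4 were not (edgeR adjusted p = 0.409, 0.200 and 0.361). The scavenger receptor Cd36 changed direction: it was at 38.4, 92.1, 37.9 and 41.4 CPM in brain and 164, 367, 63.7 and 157 CPM in blood (−1.48 ± 0.43, edgeR adjusted p = 0.0237), with overlapping groups. That call was lost without any of 6 libraries, brain libraries 1, 3 and 4 and blood libraries 1, 2 and 4 (edgeR adjusted p from 0.0629 to 0.132). Mo3 held Cd36 at 906 CPM and Mo1 and Mo2 each at 3.52 CPM, and without Mo3 brain was higher by 3.46 (edgeR adjusted p = 0.00148).

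Other genes with large losses had no shared pathway in the lists. Slc12a2, a sodium, potassium and chloride cotransporter, was at 0 to 3.77 CPM in brain and 37.3 to 183 CPM in blood (−5.52 ± 0.78), and Hpgd, which degrades prostaglandins, at 0.0457 to 25.1 CPM and 269 to 393 CPM (−4.15 ± 0.58). Abcd2, a peroxisomal fatty acid transporter (−3.97 ± 0.37), the translation inhibitor Pdcd4 (−3.97 ± 0.43), Nhsl2 (−3.60 ± 0.43) and the serpin Serpinb10 (−3.37 ± 0.40) were also lower without overlap of libraries. Ptgs2, which feeds prostaglandin synthesis, and Hpgd, which ends it, thus moved in opposite directions.

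Of 14 classical monocyte genes, 8 were called lower, 1 higher and 5 were not called, with a median of −1.18. Hp, which encodes the haemoglobin-binding protein haptoglobin, was at 501, 217, 439 and 511 CPM in brain and at 1630.2, 1783, 1752 and 1662 CPM in blood, with no overlap (−1.73 ± 0.31, edgeR adjusted p = 0.00145). F13a1, the A chain of coagulation factor XIII, was at 417 to 689 CPM in brain and 1307 to 2440.1 CPM in blood (−1.39 ± 0.28), a call lost with sham blood as the blood side (edgeR adjusted p = 0.0709). Ccr2, the receptor for CCL2, was at 1558, 1022, 1226 and 1099 CPM in brain and 2094, 2824, 5239 and 2039 CPM in blood (−1.03 ± 0.34, edgeR adjusted p = 0.0412). The call of Ccr2 was lost when any of 7 libraries was left out, all but brain library 1. Chil3, a chitinase-like protein, was lower by the same test (−1.33 ± 0.42, edgeR adjusted p = 0.035), a call lost without any of brain libraries 1 and 3 and blood libraries 1, 2 and 4. Thbs1, thrombospondin 1, was the member that was higher, at 603 to 2069.5 CPM in brain and 9.36 to 381 CPM in blood (4.11 ± 0.83). Ly6c2, the antigen by which classical monocytes are sorted, was at 1193, 317, 1313 and 945 CPM in brain and 946, 679, 1282 and 1302 CPM in blood, which overlapped (0.11 ± 0.41).

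**Figure D2:**
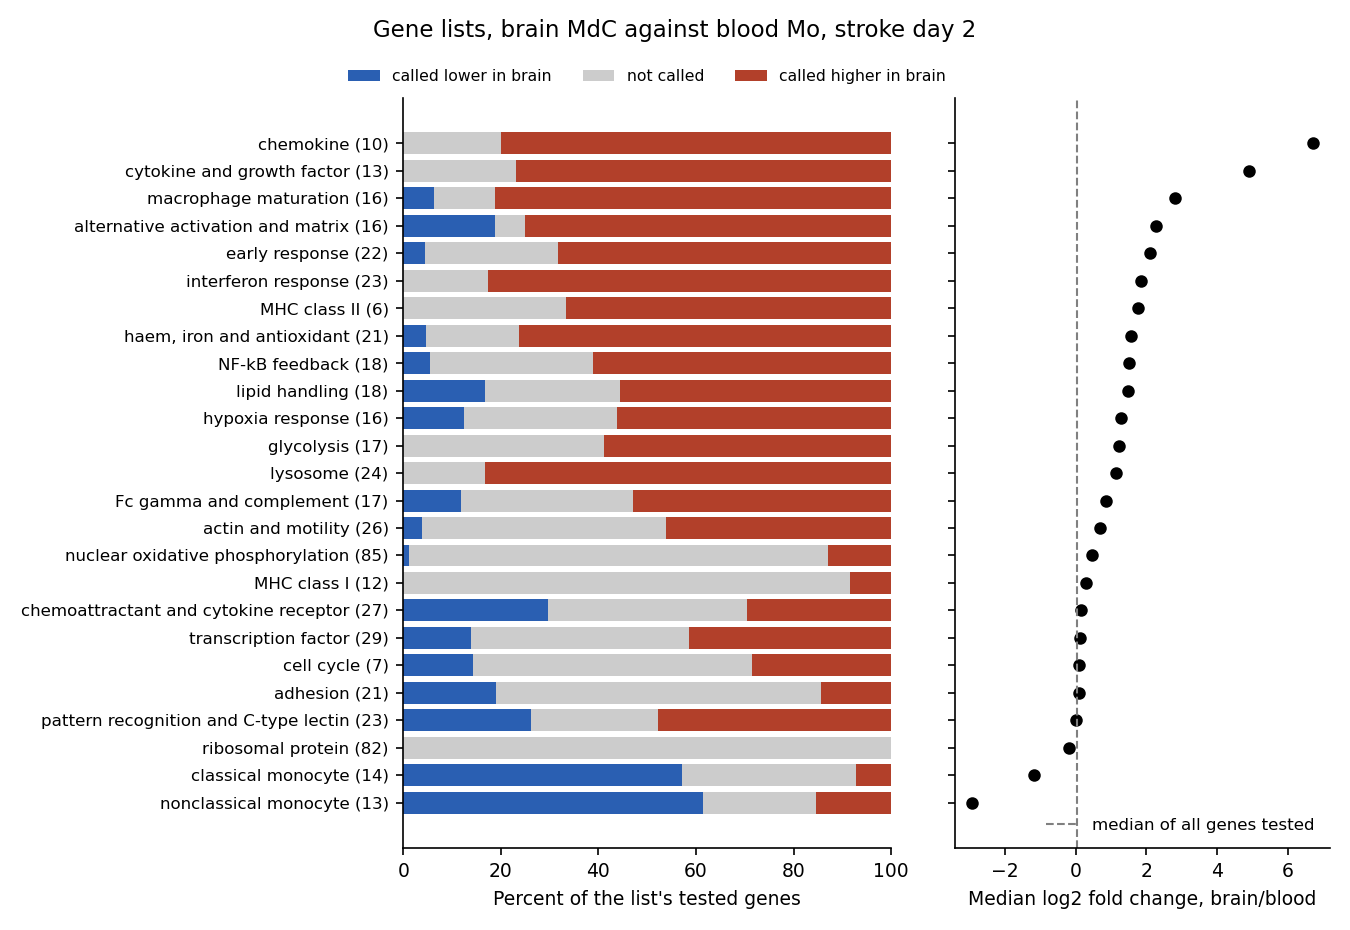
Share of each gene list called lower (blue), not called (grey) or higher (red) in brain, with the number of genes tested in parentheses, and on the right the list's median log2 fold change against the median of all genes tested (dashed, 0.04). The chemokine list has the highest median, 6.69, and the nonclassical monocyte list the lowest, −2.93.

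Genes of macrophage maturation were mostly higher, 13 of 16 tested, with 1 lower and a median of 2.80. Ms4a7, a membrane protein of the MS4A family found on macrophages, was at 326, 517, 723 and 462 CPM in brain and 37.4, 9.18, 42.8 and 19.8 CPM in blood, without overlap (4.33 ± 0.40, edgeR adjusted p = 1.25e-05). Apoe, the apolipoprotein of lipid efflux, was at 9351 to 18570.5 CPM in brain and 1742 to 4576 CPM in blood (2.19 ± 0.38), and Trem2, a lipid-sensing receptor, at 315 to 419.6 CPM and 45.2 to 83.9 CPM (2.60 ± 0.24). The efferocytosis receptors Mertk and Axl were at 0 in blood and at 13.8 to 147 CPM and at most 23.7 CPM in brain, at least 24.0-fold and 9.05-fold higher. Cd63, a tetraspanin of late endosomes, was at 594, 1571, 919 and 843 CPM in brain and had 3 counts in blood, a ratio of 483 (95% counting interval 165 to 2342).

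The complement component C1qb was at 799, 1378, 1128 and 862 CPM in brain and 35.8, 0, 8.04 and 14.3 CPM in blood (6.07 ± 0.50, edgeR adjusted p = 5.71e-06). Microglia of the same libraries held it at 8.26 times the level, and their part in the difference was not tested. C1qa, which microglia held at 25.1 times the level, was at 309, 661, 138 and 78.0 CPM in brain with 1 count in blood, a ratio of 416 (95% counting interval 74.5 to 16427). Csf1r, the receptor for the growth factor of macrophages, was the member called lower (−0.84 ± 0.27, edgeR adjusted p = 0.0396). That call was lost when any of 6 libraries was left out, brain libraries 3 and 4 and all 4 of blood.

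Of 24 lysosomal genes tested, 20 were called higher, none lower and 4 were not called, with a median of 1.14. With library totals in place of TMM the count was 15. Cathepsin D (Ctsd), a protease of the lysosome, was at 2440.1, 3689, 3572 and 2959 CPM in brain and 270.0, 109, 133 and 332 CPM in blood (4.11 ± 0.42, edgeR adjusted p = 2.90e-05). The asparaginyl protease Lgmn was nearly level over the brain libraries, at 1846, 1834, 1768 and 1801 CPM, against 179.9, 109, 109.7 and 146 CPM in blood (3.96 ± 0.29). Both genes' groups were far apart. Ctsl (3.16 ± 0.25), Grn, which encodes the lysosomal and secreted protein progranulin (2.32 ± 0.28), and Ctsb (2.22 ± 0.29) were also higher without overlap, and Ctsk had 191 counts in brain and 2 in blood, a ratio of 16.5 (95% counting interval 4.51 to 137). The letters CACGTG, the E-box found in many lysosomal promoters, occurred in the 250 bases before the start of 5 of the 16 called genes with a promoter in the RefSeq table (GRCm38.p6), on either strand. The table held a promoter for 5724 of the 7540 genes tested. Among all genes tested the share was 11.4%, and among all windows of that length 6.02%. The Ctsd window, chr7:142387828-142388077 on the minus strand, shows the motif in capitals at 245 and 98 bases before the start.
Ctsd: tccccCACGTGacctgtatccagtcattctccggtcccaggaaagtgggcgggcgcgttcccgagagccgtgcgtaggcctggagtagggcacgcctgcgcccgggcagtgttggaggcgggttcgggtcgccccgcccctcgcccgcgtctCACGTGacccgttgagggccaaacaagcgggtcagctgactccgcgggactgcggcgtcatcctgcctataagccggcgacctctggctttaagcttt

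Of 18 lipid handling genes, 10 were higher and 3 lower, with a median of 1.49. Fabp5, a cytosolic fatty acid carrier, was at 684, 1768, 1310.5 and 825 CPM in brain and 28.5, 52.9, 11.2 and 27.1 CPM in blood, without overlap (5.67 ± 0.46, edgeR adjusted p = 5.05e-06). Plin2, which coats lipid droplets, was at 862 to 1165 CPM in brain and 159 to 333 CPM in blood (2.62 ± 0.29). Hilpda, a lipid droplet protein that inhibits lipolysis, was at 259, 326, 545 and 379.9 CPM in brain and 7.13, 8.48, 0 and 1.78 CPM in blood (6.87 ± 0.53). Both droplet proteins were higher without overlap of libraries. Gpnmb, a glycoprotein of lipid-laden macrophages, is listed in the brain table alone and stood there at 516 CPM ± 156 (SD, n = 4), so it was not tested.

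Chemokines had the largest median of any list, 6.69, with 8 of 10 tested higher and none lower. Ccl2, the ligand of CCR2 that draws classical monocytes, was at 1188, 897, 1724 and 2422 CPM in brain and 10.7, 63.9, 50.4 and 12.3 CPM in blood (6.10 ± 0.60, edgeR adjusted p = 2.07e-05). Brain cells thus held more of the ligand, while the receptor Ccr2 was called lower. The macrophage inflammatory proteins Ccl4 (7.29 ± 0.61) and Ccl3 (4.05 ± 0.45) were also higher. Microglia held Ccl3 at 5.27 times and Ccl4 at 3.76 times the level of these cells. Other chemokines are listed in the brain table alone, among them Ccl7 at 823 CPM ± 483 and Cxcl1 at 229 CPM ± 53.9 (SD, n = 4).

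Cytokines and growth factors followed, with 10 of 13 higher, none lower and a median of 4.89. Interleukin 1 beta (Il1b) was at 4565, 3533, 7705 and 6806 CPM in brain and 163, 0, 0 and 59.2 CPM in blood (6.73 ± 0.97, edgeR adjusted p = 3.23e-04). Blood monocytes held 124 counts of Il1b as deposited and 324 when rounded up, and the fold change was then 4.90. Tnf was at 80.8 to 231 CPM in brain and 0 to 15.8 CPM in blood (4.86 ± 0.62), the gp130 cytokine Osm at 526 to 859 CPM and 1.51 to 14.0 CPM (6.83 ± 0.48), and Il6 at 12.3 to 42.1 CPM and 0, at least 13.9-fold higher. The receptor antagonist Il1rn, which blocks interleukin 1, was also higher (4.89 ± 0.41). Vegfa, a growth factor of vessels, was at 88.8 to 198 CPM in brain with 1 count in blood, a ratio of 220.4 (95% counting interval 39.5 to 8712). Inducers and inhibitors of the interleukin 1 response were higher in the same sums.

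Receptors moved both ways, 8 of 27 higher and 8 lower, with a median of 0.15. The anaphylatoxin receptors C3ar1, at 277 to 361 CPM in brain and 0 to 5.34 CPM in blood (6.21 ± 0.36), and C5ar1 (2.98 ± 0.35) were higher. The interferon gamma receptor chain Ifngr1, at 260.3 to 351 CPM in brain and 887 to 1063 CPM in blood (−1.36 ± 0.23), and the interleukin 6 receptor Il6ra (−1.61 ± 0.25) were lower, as was the formyl peptide receptor Fpr1 (−1.79 ± 0.37, a call lost with Mo1 alone or sham blood as the blood side). Of 21 adhesion genes 3 were higher, 4 lower and 14 not called, with a median of 0.10. Over all genes tested, 5677 of 7540 were not called. Itga4, the alpha 4 integrin that binds VCAM1, was at 104, 61.0, 56.9 and 44.8 CPM in brain and 393, 567, 428 and 325 CPM in blood, without overlap (−2.40 ± 0.26, edgeR adjusted p = 3.70e-05). Itgb5, the beta 5 integrin used in uptake of dying cells, was at 70.9 to 169 CPM in brain and 8.04 to 18.8 CPM in blood (3.12 ± 0.37), and the tetraspanin Cd9 was also higher (2.78 ± 0.39). The junctional adhesion protein Jaml was lower, at 15.7 to 22.7 CPM in brain and 134 to 234 CPM in blood (−2.88 ± 0.27).

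Glycolysis genes were higher in 10 of 17 and lower in none, with a median of 1.22. Ldha, which makes lactate, was at 617, 637, 775 and 835 CPM in brain and 311, 234, 181 and 236 CPM in blood (1.84 ± 0.27, edgeR adjusted p = 3.75e-04). Pfkfb3, which makes the activator of phosphofructokinase, was at 38.8 to 105 CPM in brain and 5.92 to 10.9 CPM in blood (3.13 ± 0.39), the pyruvate kinase Pkm at 1039.9 to 1337 CPM and 291 to 627 CPM (1.65 ± 0.29), and the glucose transporter Slc2a1, which the endothelium of these libraries held at 24.2 times the level, at 33.2 to 69.0 CPM and 0 to 23.7 CPM (2.10 ± 0.46).

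Of 16 genes of the response to low oxygen, 9 were higher and 2 lower, with a median of 1.28. The transcription factor Hif1a was at 325, 287, 324 and 347 CPM in brain and 101, 111, 53.3 and 70.9 CPM in blood (2.25 ± 0.26, edgeR adjusted p = 7.07e-05), without overlap. Ankrd37 (2.75 ± 0.34) and Mif, a cytokine (3.16 ± 0.36), were higher, and Ndrg1 was lower, at 22.8 to 40.1 CPM in brain and 71.6 to 129 CPM in blood (−1.24 ± 0.29), a call lost without blood library 3 and with cells of at least 800 counts. The letters ACGTG, the core of the element bound by hypoxia-inducible factors, were found on either strand before the start of 7 of the 8 called genes of this list with a promoter in the table, and of 7 of the 10 called glycolysis genes. The share was 27.5% of all genes tested and 16.6% of all windows. ACGTG is part of CACGTG, so the matches of the lysosomal motif are also matches of this one. The Hilpda window, chr6:29272376-29272625 on the plus strand, has its match in capitals 43 bases before the start.
Hilpda: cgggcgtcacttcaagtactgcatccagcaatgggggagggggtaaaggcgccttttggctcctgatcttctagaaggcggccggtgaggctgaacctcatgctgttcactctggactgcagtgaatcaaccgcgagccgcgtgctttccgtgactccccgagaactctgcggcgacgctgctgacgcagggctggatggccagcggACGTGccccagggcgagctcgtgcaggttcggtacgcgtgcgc

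Genes of haem breakdown, iron storage and antioxidant defence were higher in 16 of 21 and lower in 1, with a median of 1.56. Haem oxygenase 1 (Hmox1), which opens the haem ring, was at 269, 539.6, 321 and 448 CPM in brain and 56.2, 53.9, 39.0 and 128 CPM in blood (2.70 ± 0.39, edgeR adjusted p = 3.27e-04). The ferritin heavy chain Fth1, which stores iron, was at 18268, 24859, 28868 and 27878 CPM in brain and 3171, 3156, 2675 and 2876 CPM in blood (3.37 ± 0.36). Both sets of libraries stood apart in each gene. The cystine importer Slc7a11 had 1 count in blood, a ratio of 85.2 (95% counting interval 15.2 to 3373), and the sulfiredoxin Srxn1 had 1 count in blood, a ratio of 41.3 (95% counting interval 7.34 to 1638). Prdx6 (2.80 ± 0.26) and the metallothionein Mt1 (3.23 ± 0.30) were higher, and glutathione reductase (Gsr) was lower (−1.34 ± 0.26). Bach1, which represses Hmox1 and other antioxidant genes, was lower as well, at 95.5 to 194 CPM in brain and 261 to 754 CPM in blood (−1.37 ± 0.34), a call lost without blood library 2 or 3. The antioxidant element core TGACNNNGC, searched on both strands, was in 5 of 14 promoters of called members, against 14.3% of genes tested and 10.2% of windows.

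Beyond Arg1, the list of alternative activation and matrix genes had 12 of 16 higher and 3 lower, with a median of 2.26. Tgfbi, a matrix protein induced by TGF-beta, was at 2659, 1676, 2556 and 2488 CPM in brain and 641, 378, 383 and 534 CPM in blood (2.54 ± 0.32, edgeR adjusted p = 1.29e-04). Transglutaminase 2 (Tgm2) was at 359 to 651 CPM in brain and 7.59 to 28.1 CPM in blood (4.60 ± 0.35), and Ecm1 at 353 to 529 CPM and 34.1 to 47.1 CPM (3.67 ± 0.28). The collagenase Mmp8, a neutrophil product also held by blood monocytes, was lower, at 67.9 to 107 CPM in brain and 369.6 to 777 CPM in blood (−2.39 ± 0.28), and Chil3, often read as a marker of alternative activation, was lower while Arg1 was higher. Blood neutrophils held Mmp8 at 5.63 times the monocytes' level.

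Interferon response genes were higher in 19 of 23 and lower in none, with a median of 1.86. Isg15, a ubiquitin-like modifier, was at 714, 448, 611 and 642 CPM in brain and 37.1, 8.93, 20.0 and 30.9 CPM in blood (4.71 ± 0.35, edgeR adjusted p = 3.86e-06). Rsad2, the antiviral protein viperin, was at 209 to 419 CPM in brain and 6.79 to 17.4 CPM in blood (4.88 ± 0.37). Ifit3 (4.05 ± 0.57), Bst2 (2.63 ± 0.25) and the transcription factor Irf7 (1.89 ± 0.38) were also higher without overlap. The core of the interferon-stimulated response element, GAAA followed after any 2 bases by GAAA, stood on either strand in 7 of 12 promoters of called members, against 3.90% of genes tested and 2.98% of windows. It is shown in capitals for the Cxcl10 window, chr5:92348890-92349139 on the minus strand with a match 213 bases before the start, and for the Isg15 window, chr4:156200819-156201068 on the minus strand, where 3 overlapping matches begin 78, 72 and 66 bases before the start. A match of letters is no evidence that a factor binds there in these cells.
Cxcl10: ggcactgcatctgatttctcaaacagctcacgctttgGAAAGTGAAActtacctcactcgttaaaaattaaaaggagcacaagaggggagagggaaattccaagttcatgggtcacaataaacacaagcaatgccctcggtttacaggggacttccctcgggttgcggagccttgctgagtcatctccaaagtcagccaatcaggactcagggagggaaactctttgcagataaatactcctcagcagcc
Isg15: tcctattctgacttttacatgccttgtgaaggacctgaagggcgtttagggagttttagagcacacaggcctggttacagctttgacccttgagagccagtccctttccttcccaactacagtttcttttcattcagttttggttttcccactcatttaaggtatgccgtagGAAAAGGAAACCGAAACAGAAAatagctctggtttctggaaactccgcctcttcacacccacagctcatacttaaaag

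Antigen presentation by class II molecules was higher in 4 of 6 genes, with a median of 1.75. H2-Ab1 was at 757, 672, 1082 and 833 CPM in brain and 314, 207, 182 and 315 CPM in blood (1.97 ± 0.30, edgeR adjusted p = 4.73e-04), and H2-Aa at 402 to 790.4 CPM and 80.5 to 208 CPM (2.27 ± 0.37). Dendritic cells of the brain libraries held H2-Ab1 at 18.3 times and B cells of the blood libraries at 19.6 times the level of the cells compared, and their part in the difference was not tested. Of 12 class I genes, with a median of 0.28, 11 were not called and 1, the peptide loading protein Tapbp, was higher (0.86 ± 0.25). The Tapbp call was lost with library totals and without brain library 1 or blood libraries 1, 2 or 3.

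Early response genes, which cells switch on within minutes of a stimulus, were higher in 15 of 22 and lower in 1, with a median of 2.11. Fos was at 2113, 1440.1, 2514 and 2376 CPM in brain and 877, 1309, 968 and 492 CPM in blood (1.54 ± 0.33, edgeR adjusted p = 0.00482). Ier3 was at 1319 to 2178 CPM in brain and 15.6 to 56.4 CPM in blood (6.01 ± 0.40), and Zfp36, which destroys cytokine mRNAs, at 1179 to 2128 CPM and 208 to 389 CPM (2.88 ± 0.34). Jun was at 459 to 633 CPM in brain and at 163, 1003, 243 and 166 CPM in blood. It was not called (0.92 ± 0.47), and with blood library 2 left out it was called higher in brain, by 1.78. Klf2, a factor of quiescence, was the member called lower, at 27.1 to 78.9 CPM in brain and 373 to 703 CPM in blood (−2.96 ± 0.37).

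Genes that feed back on NF-kB were higher in 11 of 18 and lower in 1, with a median of 1.52. Nfkbia, the inhibitor that holds NF-kB in the cytosol, was at 5819, 3664, 4685 and 5809 CPM in brain and 508, 785, 316 and 545 CPM in blood (3.52 ± 0.36, edgeR adjusted p = 2.81e-05). Tnfaip3, which encodes the deubiquitinase A20, was at 59.8 to 188 CPM in brain and 1.70 to 7.74 CPM in blood (4.88 ± 0.51). Nfkb1, a subunit of the factor itself, was called lower (−1.35 ± 0.40, edgeR adjusted p = 0.0283), with overlapping libraries and a call lost without any of brain libraries 3 and 4 and blood libraries 1, 2 and 3.

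Transcription factors moved both ways, 12 of 29 higher and 4 lower, with a median of 0.11. Id3 (4.14 ± 0.48), Prdm1, a repressor also known as BLIMP-1 (4.21 ± 0.52), and Runx3 (2.29 ± 0.35) were higher. Klf13 was at 177, 159, 149 and 162 CPM in brain and 758, 1169.8, 747 and 641 CPM in blood (−2.05 ± 0.23, edgeR adjusted p = 4.62e-05). Klf13 and Klf2 thus fell together, each without overlap of libraries.

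Pattern recognition receptors and C-type lectins divided 11 higher to 6 lower of 23, with a median of 0.02. Cd14, the co-receptor for lipopolysaccharide, was at 2205, 1694, 2508 and 2802 CPM in brain and 102, 107, 66.2 and 85.2 CPM in blood (4.97 ± 0.34, edgeR adjusted p = 3.32e-06). Tlr2 (2.69 ± 0.25) and the activating lectins Clec4d (3.75 ± 0.33) and Clec4n (3.48 ± 0.33) were higher, while Clec12a, an inhibitory receptor for uric acid crystals (−2.12 ± 0.34), and Clec4a3 (−1.51 ± 0.30) were lower. Among Fc gamma and complement genes 9 of 17 were higher and 2 lower. The high-affinity IgG receptor Fcgr1 was at 285 to 719.8 CPM in brain and 55.1 to 104 CPM in blood (3.04 ± 0.36).

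No ribosomal protein gene of 82 was called, with a median of −0.19, though 2 were lower with library totals. Of 85 nuclear genes of oxidative phosphorylation, 11 were higher and 1 lower, and with library totals 4 and 3. The share of this list called higher was near the 13.4% of all genes tested. Actin and motility genes were higher in 12 of 26 and lower in 1 (10 and 5 with library totals). Lmna, a nuclear lamin, was higher (2.62 ± 0.43), as was S100a10 (1.53 ± 0.35). The call of S100a10 was lost with Mo1 alone as the blood side and with brain libraries 1 and 2 alone (edgeR adjusted p = 0.0979 and 0.0586). Lsp1, a leukocyte actin-binding protein, was lower, at 166 to 369 CPM in brain and 972 to 1079 CPM in blood (−1.43 ± 0.29). Only 7 of 36 cell cycle genes had enough counts to be tested. The centromere histone Cenpa was higher (2.47 ± 0.34) and Hmgb2, a chromatin protein of dividing cells, was lower (−1.65 ± 0.36).

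Subtypes given by the deposited annotation show which cells carried these levels. Their genes were used to define them, so the levels are described without a test. Brain cells were 31.5% ± 3.39 MdC1, 28.8% ± 2.26 MdC2, 14.7% ± 2.29 MdC3, 12.5% ± 2.21 MdC4, 9.56% ± 1.14 MdC5 and 2.84% ± 3.37 MdC6 (mean ± SD, n = 4). Blood cells were 54.7% ± 4.0 Mo2, 23.1% ± 13.1 Mo3, 14.1% ± 10.6 Mo1, 4.13% ± 2.01 Mo4 and 4.06% ± 1.25 Mo5.

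MdC1 held the highest Arg1 and Spp1 of the brain subtypes, 2938 CPM ± 643 and 14956 CPM ± 4478 (SD, n = 4), together with Fabp5 at 2368 CPM and Hmox1 at 639 CPM. MdC2 led in Il1b at 9254 CPM, Cxcl2 at 6894 CPM and Ptgs2 at 943 CPM. MdC4 held Cxcl10 at 1822 CPM, Isg15 at 2474 CPM and Rsad2 at 1654 CPM. Its blood counterpart by Isg15 and Rsad2 was Mo4, at 254 CPM and 164 CPM, but without Cxcl10. MdC5 held H2-Ab1 at 6559 CPM and Mo5 at 3351 CPM. MdC6, few in number, had Apoe at 27113 CPM, C1qb at 2676 CPM and Ctsd at 6109 CPM. Levels of Mo4 and Mo5 are means of 2 libraries and those of MdC6 of 3.

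MdC3 was the brain subtype nearest to blood in many of these genes. It had the lowest brain Arg1 (66.8 CPM ± 49.1), Spp1 (578 CPM), Ctsd (745 CPM) and Fth1 (10496 CPM), and the highest Ccr2 (1948 CPM), Ear2 (76.3 CPM) and Klf2 (98.9 CPM). MdC3 still held Il1b at 4077 CPM and Cxcl2 at 1846 CPM, against 8.32 to 112 CPM and 0 to 11.2 CPM in the blood subtypes. Without MdC3 the comparison called 1071 genes higher and 960 lower. With Mo2 alone as the blood side 860 genes were higher and 655 lower, and with Mo1 alone, summed over 3 libraries with enough of its cells, 573 and 165.

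**Figure D3:**
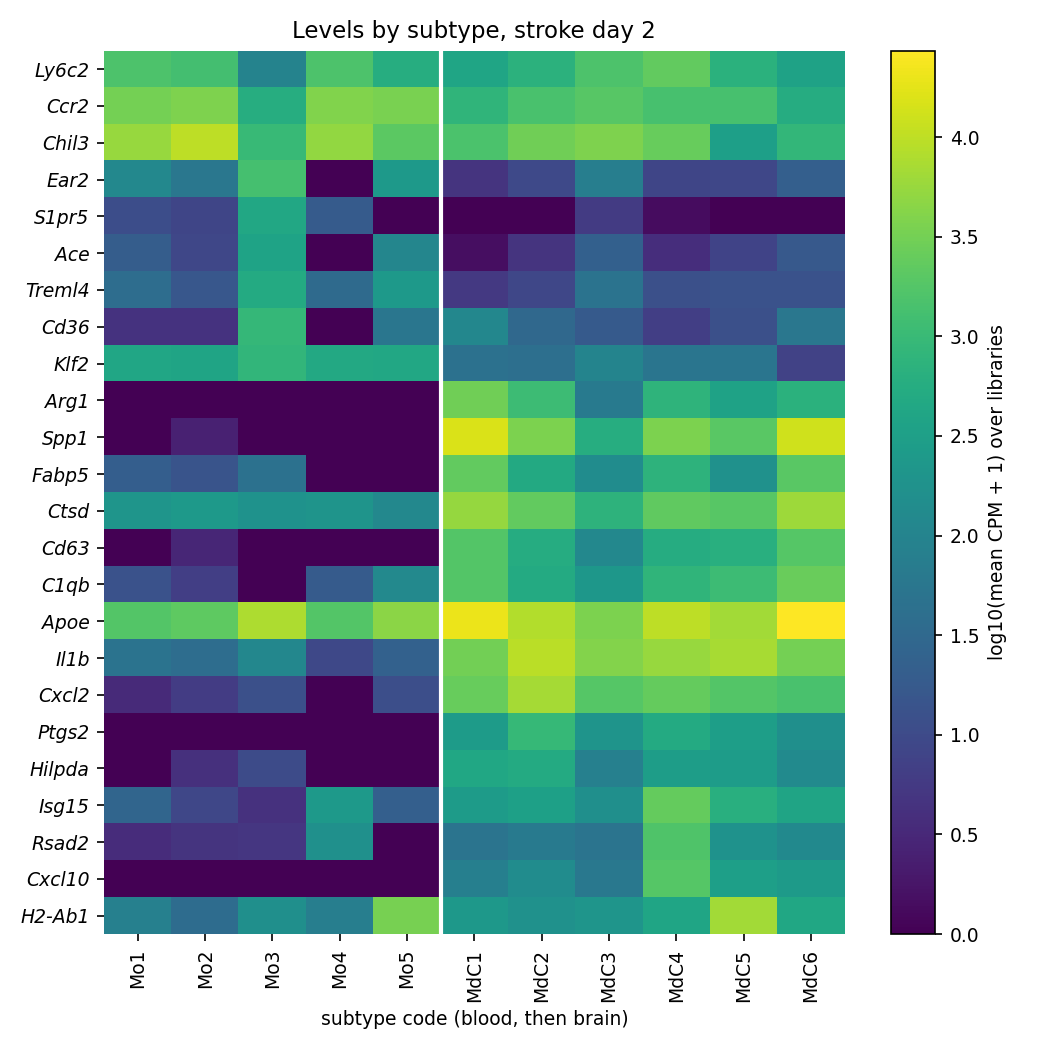
Mean level of 24 genes in the 5 blood and 6 brain subtypes at day 2, as log10 of CPM + 1 over libraries with at least 20 cells of the subtype. Nonclassical genes are brightest in Mo3, interferon genes in MdC4, H2-Ab1 in MdC5 and Mo5, and Arg1 is at 0 in every blood subtype.

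Monocyte-derived cells of sham-operated brains were described beside those of stroke, since they were prepared in the same way. They were few, 43 to 99 cells and 18299 to 112149 counts per library, and 75.7% ± 10.8 of them (SD, n = 4) were MdC3. Of the 1007 genes higher in stroke brain than in stroke blood, 379 had every stroke brain library above every sham brain library, 621 overlapped and 7 had every sham library above. Over all 7540 genes tested, 655 (8.69%) had every stroke library above every sham library. The 1007 genes were chosen by the levels of these same stroke brain libraries, so a share above that of all genes can come from the choice alone. No difference between stroke and sham brain was tested.

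Il1b was at 5541 CPM ± 1571 in sham brain and 5652 CPM ± 1934 in stroke brain (SD, n = 4 each), against 55.4 CPM ± 76.7 in stroke blood. Nfkbia was at 4167 CPM ± 1299.7 in sham and 4994 CPM ± 1034 in stroke brain, Ptgs2 at 278 CPM ± 202 and 484 CPM ± 128, Cd14 at 1700.2 CPM ± 524 and 2302 CPM ± 473, and Fos at 2024 CPM ± 255 and 2111 CPM ± 477. In each of these 5 genes the sham and stroke brain libraries overlapped and sham brain lay above stroke blood on average. None of the 11 called NF-kB feedback genes and none of the 4 class II genes had stroke libraries all above sham, and 3 of the 15 early response genes did. High levels of these 5 genes were thus not particular to brain cells of mice with a stroke.

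Other genes had no overlap of sham and stroke brain. Arg1 was at 0 in all 4 sham brain libraries and at 1504 CPM ± 512 in stroke brain. Spp1 was at 104 CPM ± 87.5 in sham and 7411 CPM ± 4106 in stroke, Ctsd at 239 CPM ± 184 and 3165 CPM ± 579.6, Lgmn at 185 CPM ± 143 and 1812 CPM ± 35.3, Fabp5 at 68.2 CPM ± 41.1 and 1147 CPM ± 494, and Hmox1 at 59.3 CPM ± 18.8 and 394 CPM ± 123. No sham library reached the stroke range in any of these 6 genes. Stroke libraries were all above sham in 9 of the 10 called lipid handling genes, 11 of 16 haem, iron and antioxidant genes, 8 of 13 macrophage genes, 12 of 20 lysosomal genes and 6 of 10 glycolysis genes. The same held for 7 of the 19 interferon genes, 3 of the 8 chemokines, 3 of the 12 transcription factors, 3 of the 11 pattern recognition genes and none of the 11 genes of oxidative phosphorylation. The share over all 1007 genes called higher was 37.6%, and no list was tested against it. Of the 856 genes lower in brain than in blood, 215 had every sham brain library above every stroke brain library, as had 407 of all 7540 genes tested (5.4%). Those 856 genes were likewise chosen by the same stroke brain libraries. Among nonclassical genes, Spn was at 101 CPM ± 36.3 in sham brain, against 6.31 CPM ± 0.457 in stroke brain, and Ear2 at 132 CPM ± 81.5 against 15.1 CPM ± 10.4.

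**Figure D4:**
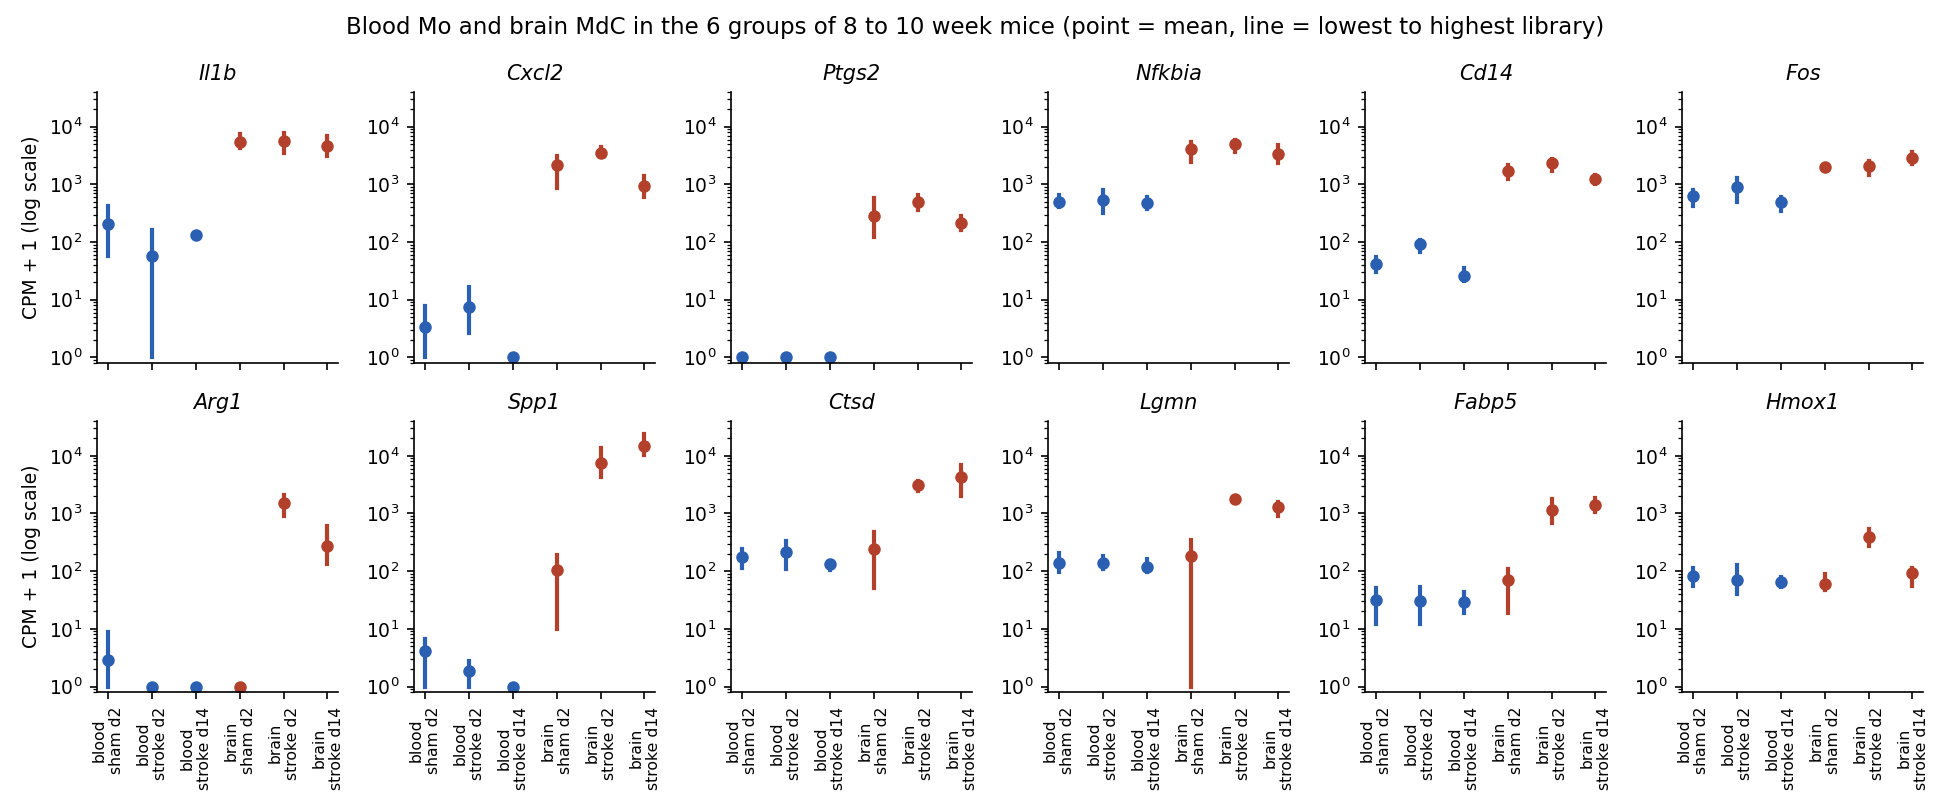
Level of 12 genes in blood monocytes (blue) and brain monocyte-derived cells (red) of the 6 groups of 8 to 10 week old mice, as CPM + 1 on a log axis, with the mean as a point and the lowest to highest library as a line. In the upper row the ranges of sham and stroke brain overlap for all genes but Cxcl2 (mean 2200.0 and 3567 CPM), and in the lower row they overlap for none of the 6 genes.

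The tissues were also compared 14 days after stroke, in 4 brain and 3 blood libraries that the day 2 comparison did not use. These were fitted together with the day 2 libraries, which entered the filter and the estimate of the spread. The day 14 calls are therefore not independent of day 2. At day 14, 1361 of 7651 genes were called (17.8%), 806 higher in brain (10.5%) and 555 lower (7.25%), and the libraries of brain and blood did not overlap in 2556 genes (33.4%). Of the genes higher at day 2, 613 were also higher at day 14, which is 60.9% of the day 2 and 76.1% of the day 14 genes. Of those lower at day 2, 386 were lower at day 14, 45.1% and 69.5%. Of the day 2 genes tested at day 14, 97.3% of those higher and 95.7% of those lower had the same sign, and 1 gene was called in opposite directions. Spp1 was at 14808 CPM ± 6301 in brain at day 14, Cd63 at 1498 CPM ± 324 and Arg1 at 269 CPM ± 229 (SD, n = 4), with Cxcl2 at 925 CPM ± 352 against 3567 CPM ± 542 at day 2. The lower genes led again with Cd300e, which was at 0 in every brain library, S1pr5 (−6.61 ± 0.64), Ear2 (−5.67 ± 0.60), Treml4 (−4.93 ± 0.46) and the activating receptor Lilra5 (−4.63 ± 0.72). Apoe was at 49165 CPM ± 7766 in brain at day 14, with a tissue difference of 4.06 ± 0.37 against 2.19 ± 0.38 at day 2, and the 2 differences were not called different (edgeR adjusted p = 0.191). The subtypes behind the sums were not the same at both times. MdC6 made up 34.0% ± 1.26 of brain cells at day 14 and 2.84% at day 2, MdC1 1.91% ± 1.24 and 31.5%, and MdC2 3.73% ± 1.21 and 28.8%. In blood, Mo2 made up 2.79% ± 1.70 at day 14 (SD, n = 3) and 54.7% at day 2. The part of these shares in the comparison of the days was not tested.

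The difference of the differences was called for 4 of 7651 genes (0.0523%), all with a larger brain to blood ratio at day 14. These genes are named after their values were seen. Gpx3, a secreted glutathione peroxidase, was lower in brain at day 2 (19.5 CPM ± 4.76 against 62.7 CPM ± 32.1) and higher at day 14 (69.6 CPM ± 15.5 against 6.62 CPM ± 7.87), a change of 5.03 (edgeR adjusted p = 0.0139). Its call at day 2 was lost under 6 settings, among them without blood library 2 or 3 of that day (edgeR adjusted p from 0.0535 to 0.457). Abcd2 was at 12.5 CPM at day 2 and 43.5 CPM at day 14 in brain, and at 240.1 and 135 CPM in blood, a change of 2.60 (edgeR adjusted p = 0.0355). Jaml was near 20.3 CPM in brain at day 2 and between 14.7 and 33.1 CPM at day 14, and at 186 and 28.5 CPM in blood, a change of 2.69 (edgeR adjusted p = 0.0355). The histone gene Hist1h2bc was near 0 in blood at day 14 and 39.0 CPM at day 2 (9.64, edgeR adjusted p = 0.0133). The count of 4 was 0 without the second blood library of day 14, 2 without any of 6 other libraries and 10 without the second brain library of day 2.

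**Figure D5:**
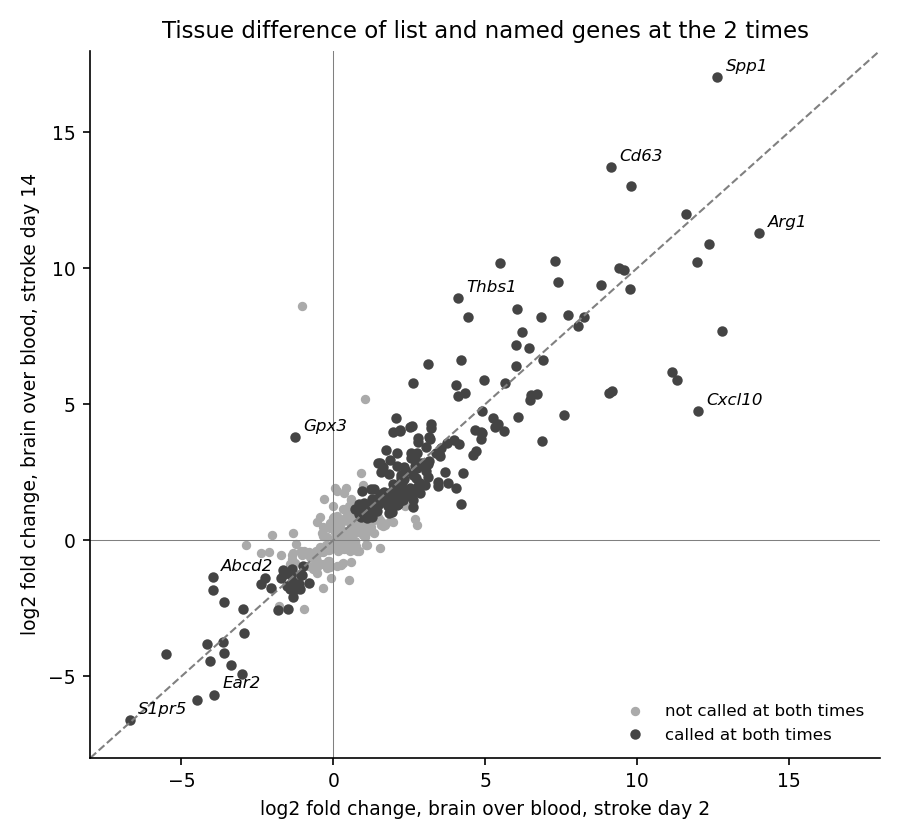
Log2 fold change of brain over blood at day 14 against that at day 2 for 397 list and named genes, with those called at both times in dark grey and the line of equality dashed. Of the 217 genes called at both times, 216 have the same sign. The exception is Gpx3, whose call at day 2 was lost under 6 settings.

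Neutrophils of the same libraries went through the same preparation, and the tissue difference of the monocyte lineage was therefore also set against theirs. In brain these were 350 cells with the parent code Gran, and in blood 8813 with the code Neu. The neutrophil markers were the highest of the marker lists in both. Blood also has a code Eos.Bas, so Gran and Neu need not cover the same cells. Of 6680 genes, 673 were called (10.1%), 494 higher (7.40%) and 179 lower (2.68%), with a median of 0.44. The split depended on the scaling: library totals gave 126 higher and 387 lower (median −0.44), and DESeq2 159 and 423 (median −0.27). Of the 944 genes called higher at day 2 and tested here, 276 were higher against neutrophils (29.2%) and 31 lower. Of the 780 called lower, 42 were lower (5.38%) and 2 higher. Both sets of genes were chosen by the same monocyte-lineage sums that enter this measure. Shares above those of all genes tested can therefore come from the choice alone. Under all 3 scalings 103 and 40 were called in the same direction. A gene that differed alike in both types is not called by this measure. Il7r, the interleukin 7 receptor, and Got1, a transaminase, were among the genes with the largest excess, at 105 CPM ± 12.3 and 152 CPM ± 35.4 in brain monocyte-derived cells and at 0 in brain neutrophils, against 1.20 and 1.73 CPM in blood monocytes (SD, n = 4). The nucleotidyltransferase Tent5c behaved likewise, at 61.1 CPM ± 29.4 in brain against 0.296 CPM in blood monocytes. Mxd1 was also among them, with the dependence on rounding given above, at 1714 CPM in brain and 1824 CPM in blood neutrophils. Of the 24 lysosomal genes 3 were higher and 1 lower by this measure (2 and 3 with library totals). Of the 6 class II genes, 4 of which were higher in brain when the monocyte lineage was taken alone, none was higher and 5 were lower against neutrophils (median −5.45, and −6.02 with library totals). A median of this size can rest on few or no counts in neutrophils of 1 tissue and is no measure of the ratio. Whether the class II reads of brain neutrophils came from other cells was not tested. Of the lower genes, Hpgd (−8.79 ± 1.64) and Filip1l (−9.04 ± 1.74) were at 0.837 and 0 CPM in blood neutrophils. Rounding matters here too: blood neutrophils held 0 counts of Filip1l as deposited and 66 when rounded up, and 4 and 13 of Hpgd, while blood monocytes held 2 and 13 of Il7r.

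Against T cells, with 215 in brain and 1976 in blood, 537 of 6916 genes were called (7.76%), 318 higher (4.60%) and 219 lower (3.17%), with a median of 0.17. Library totals gave 100 higher and 457 lower, and DESeq2 91 and 153. Of the 887 genes called higher at day 2 and tested here, 159 were higher against T cells (17.9%) and 21 lower. Of the 785 called lower, 103 were lower (13.1%) and 0 higher. These genes too were chosen by the monocyte-lineage sums that enter the measure, so the shares can come from the choice alone. Under all 3 scalings 61 and 69 were called in the same direction. Of 82 ribosomal protein genes, 59 were higher against T cells and 0 lower, but with library totals 3 were higher. None of the 6 class II genes was called against T cells, and 2 were lower with library totals. Emp1 was at 465 CPM ± 115 in brain monocyte-derived cells (n = 4) and 6.85 CPM ± 11.9 in brain T cells (n = 3), and S1pr5 at 98.7 CPM ± 43.5 in blood monocytes and 0 in blood T cells. Brain library 4, with 12 T cells, did not enter, and without brain library 3 the count was 339.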

How the data were processed

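Drop-seq libraries were summarised by the authors in the form of expected counts per gene and cell that need not be whole. They were deposited without normalization, with a cell table that gives each cell's number of genes as a count, its mitochondrial share as a percent and its parent type and subtype, per the file headers. The mm10 build and Seurat are named, without versions, in the submitters' processing notes, and the step that made the counts fractional is not given in the sources used here. Cells were taken as annotated by the authors and no doublets were removed. The members, gene lists and tests were chosen with earlier results of these data known.

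For each library the counts of a cell type were added up over the 15730 genes listed in both tissues' tables, rounded to whole numbers, filtered by filterByExpr on the group, scaled by TMM and tested with edgeR 4.0.16 (quasi-likelihood, Benjamini-Hochberg over all genes tested, in R 4.3.3). Day 14 and the difference between days were contrasts in a single fit of the day 2 and day 14 libraries. The within-library differences had the library as a block, and types needed at least 20 cells in a library. Named genes were called, had a group mean of at least 50 CPM and no overlap of libraries, were of no excluded class (predicted, mitochondrial, ribosomal protein, haemoglobin, immunoglobulin or T cell receptor genes) and were not held at over 10 times the level by another type of at least 500 cells. The 12 highest and 12 lowest were taken at day 2 and 5 and 5 elsewhere, and list members were named by role, except a few that count in their lists but are not reported here. Data were simulated with the real depths and, for each gene, a mean pooled over all sums of the comparison. A gene near 0 in only some of the tissues or types was thus not simulated. On these data the day 2 test recovered 88.1% of 4-fold and 17.4% of 2-fold changes over 7066 genes. For the difference between days it recovered 22.1% and 0% over 7114 genes, for that against neutrophils 45.2% and 4.26% over 5978, and for that against T cells 48.3% and 19.0% over 5595. Alternatives were DESeq2 1.42.0, library totals, no filter, rounding up per cell, leaving out each library, a replicate block, and other sets of genes, cells or libraries. Those that split brain libraries by mitochondrial share or left out Mo3 or MdC3 were chosen after seeing the data, as was the block for the difference between days.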

Additional observations from a re-analysis of the deposited data

Results flagged for a closer look

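Over 196 sets of 4 libraries examined (126 genes, in brain or blood where the mean was at least 20 CPM), 10 held a value far from the other 3 by Dixon's test at the 95% level, and chance alone gives such a value in about 1 in 20 sets. In brain, library 2 was the highest for Cd36 (92.1 CPM), Cd63-ps (852 CPM), Ctsl (1416 CPM) and Srxn1 (50.6 CPM) and the lowest for Cxcl10 (183 CPM), Lsp1 (166 CPM) and Ndrg1 (22.8 CPM). Brain library 4 was the highest for Cxcl2 (4375 CPM) and Mmp8 (107 CPM). In blood, library 2 was the highest for Jun (1003 CPM).

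The brain to blood difference itself differed between day 14 and day 2 for Hist1h2bc (9.64), Gpx3 (5.03), Jaml (2.69) and Abcd2 (2.60, log2 scale, edgeR).

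Against neutrophils of the same libraries, the tissue difference was larger for Tent5c (14.61), Got1 (12.26), Il7r (11.85), Mxd1 (11.61) and AA467197 (10.86), and smaller for Cx3cr1 (−10.45), Ace (−9.09), Filip1l (−9.04), Mef2c (−8.93) and Hpgd (−8.79). Against T cells it was larger for Tent5c (11.90), Rab20 (10.27), Uap1l1 (8.44), Vat1 (8.07) and Emp1 (7.67), and smaller for S1pr5 (−13.12), Ltb4r1 (−8.27), Csf1r (−8.01), Tmem176b (−7.40) and Stx11 (−7.27). Fitted values of this size rest on a type with few or no counts in 1 tissue and are no measure of the ratio: Ace had 1 count in brain neutrophils and 0 in those of blood, and Mxd1 had 0 counts in blood monocytes, or 78 when rounded up. With DESeq2, Vat1 and S1pr5 against T cells had adjusted p values of 0.159 and 0.210, and with library totals Vat1 had 0.0975.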

How the results depend on the processing

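At day 2 the count of 1863 genes was 589 with every library thinned to the smallest total (1894 genes tested) and 738 with Mo1 alone as the blood side, where the calls of Gsr, Ifngr1, Jaml, Mertk, Mmp8 and S100a10 were lost as well. Leaving out each library in turn gave 1248 to 1894. At day 14 the count of 1361 was 895 to 1489, the lowest without blood library 2 of that day and the highest without brain library 2 of day 2. The 4 genes that differed between days became 22 with DESeq2 and 8 with counts rounded up, and 0 to 10 without each library in turn. Against neutrophils 673 became 459 to 880, and against T cells 537 became 244 with DESeq2 and 339 to 528 without each library. Cd36 turned to a higher level in brain with Mo1 alone (4.04), Mo2 alone (4.05) or without Mo3 (3.46). Ly6c2, day 2, not called (0.11), was below 0 with library totals (−0.17), cells of at least 800 counts (−0.10), thinning (−0.22), Mo1 alone (−0.29), Mo2 alone (−0.21), brain libraries 1 and 2 alone (−0.41), without Mo3 (−0.19) and without MdC3 (−0.011), and was −0.10 to 0.40 without each library. The cause of these shifts was not tested. The labels do not say whether same-numbered brain and blood libraries came from the same mice. Deviations from the group means had correlations of −0.12, 0.06, 0.02 and 0.06 between same-numbered libraries. Other pairs had −0.32 to 0.20, so these values cannot decide whether the libraries were paired. With a replicate block 1779 genes were called at day 2, 1502 at day 14 and 3 between days, and Ly6c2 was −0.00585. Among named genes of day 2, 2936 values under the alternatives kept direction and side of the threshold, 104 lost the call, 7 gained it and 14 changed sign. Leaving out doublets was not run, since Scrublet marked at most 0.127% of a library. Among monocyte-lineage sums depth was lowest in sham brain, from 18299 counts, and among those tested in blood at day 2, from 108972.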

Other observations

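Some genes of the lists are given in the brain table alone and could not be compared with blood. In the 4 brain libraries, the anti-inflammatory cytokine Il10 was at 59.9, 34.9, 61.9 and 35.7 CPM, and interleukin 1 alpha (Il1a) at 51.7, 62.5, 79.6 and 45.4 CPM. Both were above 0 in every library. The protease inhibitor Timp1 was at 88.3 CPM ± 20.2, the membrane protease Mmp14 at 139.5 CPM ± 85.5, and the mucin-like protein Pdpn at 94.7 CPM ± 28.0 (SD, n = 4). Of these 3 genes Mmp14 varied most, from 54.9 CPM in library 4 to 245 CPM in library 2.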
